A study of Mus musculus with 6 samples.

Results

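The lipid droplet coat and CIDE genes were measured in adipocytes of control mice and of mice lacking PU.1 in fat. The group was chosen by name and holds 10 of the 35122 genes in the count table: the perilipins Plin1, Plin2, Plin3, Plin4 and Plin5, the CIDE genes Cidec and Cideb, the seipin gene Bscl2, and the fat storage-inducing genes Fitm1 and Fitm2. All 10 were found, and 9 of them were among the 13925 genes with enough counts to be tested. RNA came from the floating fraction of collagenase-digested epididymal fat of male C57BL/6 mice on a chow diet, with 1 library per mouse and 3 mice per genotype. Both groups carried Spi1 alleles (the gene of PU.1) in which exon 5 is flanked by loxP sites. The control mice (PU.1 fl/fl) had no Cre, and the aPU.1KO mice (AdipoqCre_PU.1 fl/fl) also carried Cre driven by the adiponectin gene promoter, which is active in fat cells. All mice were 10 to 11 months old per the labels, while the study's text gives a higher age. Mice are numbered 1 to 3 within a genotype by the order of the labels, and a number does not pair a control mouse with an aPU.1KO mouse.

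A white adipocyte stores triglyceride in a single large droplet whose surface is a phospholipid monolayer coated with proteins. Perilipins cover that surface and govern the access of lipases to the stored lipid, CIDE proteins gather where droplets touch and move lipid from the smaller to the larger one, and seipin and the FIT proteins act in the endoplasmic reticulum where droplets form and bud. PU.1 is a transcription factor of the ETS family best known from myeloid cells, and the comparison asks what its loss in fat cells does to this coat.

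Promoter sequences are shown for 3 of these genes because Plin1 and Cidec are the coat genes of unilocular fat cells and had parallel levels across the libraries, while Plin2 ran the other way. Each is the RefSeq window of 300 bases on GRCm38.p6, from 250 bases before to 50 after an annotated start, read 5′ to 3′ on the minus strand of the chromosome, which is the coding strand of all 3 genes. Capitals mark matches to TTGCNNAA, a sequence bound by C/EBP factors, or to AGGTCA, a sequence bound by nuclear receptors, which was found in the Plin2 window on the reverse strand. Cidec has 2 annotated starts, and both windows are given.

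Plin1, chr7:79732727-79733026: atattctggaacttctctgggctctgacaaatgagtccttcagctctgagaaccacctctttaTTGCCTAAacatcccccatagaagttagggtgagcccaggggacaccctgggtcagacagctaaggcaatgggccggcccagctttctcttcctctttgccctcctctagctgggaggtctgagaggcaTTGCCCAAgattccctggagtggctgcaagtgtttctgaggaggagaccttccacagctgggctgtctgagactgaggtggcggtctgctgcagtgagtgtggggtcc

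Plin2, chr4:86670010-86670309: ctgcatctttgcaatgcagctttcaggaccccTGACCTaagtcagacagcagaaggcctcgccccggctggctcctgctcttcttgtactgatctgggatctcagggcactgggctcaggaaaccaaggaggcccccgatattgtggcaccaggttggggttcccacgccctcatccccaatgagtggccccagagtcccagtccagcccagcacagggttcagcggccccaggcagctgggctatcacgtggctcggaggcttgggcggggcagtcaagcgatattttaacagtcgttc

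Cidec, chr6:113434715-113435014: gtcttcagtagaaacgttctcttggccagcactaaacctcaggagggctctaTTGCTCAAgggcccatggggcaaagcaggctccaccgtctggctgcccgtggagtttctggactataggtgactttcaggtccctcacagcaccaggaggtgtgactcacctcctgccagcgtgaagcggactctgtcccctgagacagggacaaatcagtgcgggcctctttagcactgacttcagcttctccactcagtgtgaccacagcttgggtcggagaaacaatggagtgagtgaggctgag

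Cidec, chr6:113435711-113436010: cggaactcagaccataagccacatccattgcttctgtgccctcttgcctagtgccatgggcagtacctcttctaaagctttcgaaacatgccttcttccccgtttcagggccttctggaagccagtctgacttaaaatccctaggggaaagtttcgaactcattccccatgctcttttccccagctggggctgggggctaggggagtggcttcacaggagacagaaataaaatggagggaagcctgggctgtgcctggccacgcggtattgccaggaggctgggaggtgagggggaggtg

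The Plin1 window held 2 C/EBP matches, at positions -187 and -58 from the start, and the first of the Cidec windows held 1, at position -198. TTGCNNAA was found in 10.8% of the 32817 mouse promoter windows searched on both strands. The AGGTCA match of Plin2 lay at position -218, and AGGTCA was also found in both Plin5 windows, in 1 window of Bscl2 and in 16.3% of all windows. The 14 windows of the 10 genes held no match to GAGGAAGT, the PU.1 site searched, which 3.2% of all windows held. The shorter ETS core GGAAGT, which lies within GAGGAAGT, was found in 1 window each of Plin5 and Fitm1 and in 23.8% of all windows. The direct repeat of AGGTCA with a single base between, the element of PPAR and RXR, was absent from the 14 windows and present in 0.0396% of all windows. TATAAA was found in the Cideb window and in 13.6% of all windows. A match describes the letters only and is not a binding site.

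Total counts ran from 20550252 to 24310144 in 5 libraries and reached 69283842 in control mouse 1. Levels are given in CPM, counts scaled to the library total, after TMM scaling of library sizes. Spi1 was lower in every aPU.1KO library (1.22 to 4.17 CPM) than in any control library (6.35 to 26.7 CPM). Its log2 fold change was -2.75 (edgeR adjusted p = 0.0788, DESeq2 adjusted p = 7.47e-05) and -0.08 with the macrophage marker score as a covariate in edgeR, and the counts are over the whole gene, not over the deleted exon. Control mouse 2 stood apart: the summed level of 16 macrophage markers was 532.7 CPM there against 1950 and 1874 CPM in control mice 1 and 3, and 367.1, 233.7 and 344.6 CPM in aPU.1KO mice 1, 2 and 3. Of these 16 markers, 15 had a log2 fold change below 0 (median of all 16 -2.25). For 14 of them every aPU.1KO library was below every control library, beside 15.5% of all genes. Adiponectin (Adipoq), which defines fat cells, was at 2448, 2847 and 2685 CPM in the control mice and at 3943, 3443 and 3359 CPM in the aPU.1KO mice. Among 10 adipocyte markers, none of them a coat gene, 9 had a log2 fold change above 0 and 1, Lep, below 0 (median 0.43), and their summed level was 36882 to 40402 CPM in the control and 45507 to 53564 CPM in the aPU.1KO libraries. All 9 markers of progenitors and fibroblasts and all 8 of endothelial cells were below 0, with medians of -0.91 and -0.49. Markers of hepatocytes were low, with a summed level of 41.8 to 66.5 CPM in the control and 17.6 to 23.9 CPM in the aPU.1KO mice, most of it Alb. All 8 were lower in aPU.1KO mice without overlap, beside 15.5% of all genes. Of these, 4 (Apoa1, Ttr, Fgg and Mup3) were among the 33 genes edgeR called in the whole table, where 0.18% were called lower. Apoa1, Ttr and Fgg were at 0 to 0.136 CPM in the aPU.1KO mice and passed the count filter through the control mice, so their calls lean on that group. The summed level of 6 mesothelial markers was 4.64 to 16.8 CPM over all libraries, that of 6 brown and beige fat markers 17.9 to 25.9 CPM, and that of 5 epididymis markers at most 1.03 CPM, with Lcn5, Lcn8 and Spag11b at 0 counts in all 6 libraries. Of the 7 skeletal muscle markers, Acta1 was at 129.0 CPM in aPU.1KO mouse 1 and at 35.1 to 48.9 CPM in the other libraries, and each of the others was below 1 CPM in every library. In such bulk RNA, fewer cells of a type and less RNA per cell cannot be told apart, and the alternatives that bear on these marker differences, scaling by the adipocyte markers and the macrophage score as a covariate, are given with the coat gene values.

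The levels of the 10 genes spanned a wide range. Per kilobase of all annotated exons, Cidec was the highest at 1848 ± 126 CPM per kb in the control mice (mean ± SD, n = 3), followed by Plin4 at 721.3 ± 59.2, Plin1 at 454.8 ± 21.0 and Plin2 at 151.6 ± 39.1. Fitm2 (57.8 ± 5.16 CPM per kb), Bscl2 (44.1 ± 1.78) and Plin3 (22.4 ± 1.27) lay in the middle. Plin5 (3.02 ± 0.231 CPM per kb), Fitm1 (0.684 ± 0.00941) and Cideb (0.124 ± 0.0462) closed the order. In each of the 6 libraries every gene was above the next one in this order, and the order was the same in aPU.1KO mice. Among 13921 genes ranked by control level per kb, Cidec ranked 21, Plin4 46, Plin1 61 and Plin2 236, while Plin5 ranked 8303 and Fitm1 11656. With the longest annotated transcript as length, Plin1 (750.6 ± 34.7 CPM per kb) and Plin4 (723.9 ± 59.5) did not differ beyond their spread in the control mice, where Plin1 was above Plin4 in 2 of 3 libraries. In the aPU.1KO mice Plin1 (908.5 ± 58.9) was above Plin4 (765.5 ± 5.65) in 3 of 3 libraries. Bscl2 then stood above Fitm2 in every library, so the order of these pairs depends on the length used. Together the 10 genes took 1.07% to 1.21% of all counts in a library.

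**Figure D1:**
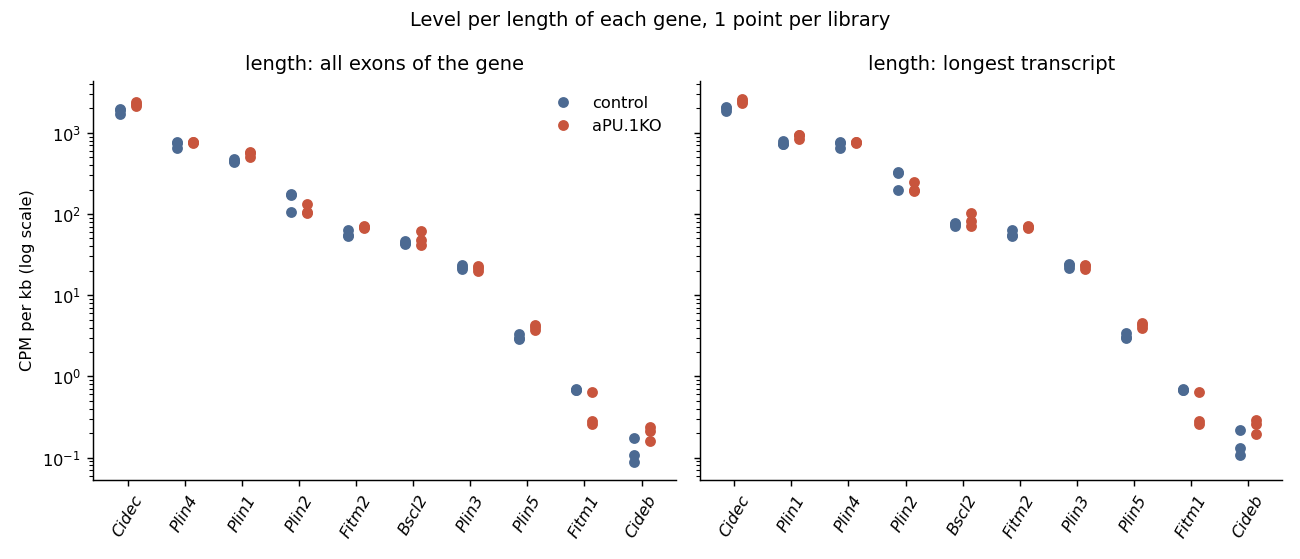
Level of each gene per length in CPM per kb (log axis), with 1 point per library, control in blue and aPU.1KO in red, and genes ordered by the control mean. In the left panel (length of all exons) Cidec is the highest and Cideb the lowest in each library, and in the right panel (longest transcript) Plin1 and Plin4 lie at one level in the control mice.

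No coat or CIDE gene passed an adjusted p of 0.05 in edgeR's quasi-likelihood test. Of the 9 genes tested, 0 were called, beside 33 of 13925 genes in all, a background of 0.237% (0.0575% of genes were called higher and 0.18% called lower). With p under 0.05 before adjustment, 3 of the 9 were higher in aPU.1KO mice under TMM scaling (Plin1, Plin5 and Fitm2), beside 11.9% of all genes, and 0 were lower, beside 13.7%. That count rested on single mice: without control mouse 1 no coat gene had such a p, without control mouse 2 it was Fitm2 (and Plin2, lower), without control mouse 3 or aPU.1KO mouse 1 Plin5. Without aPU.1KO mouse 2 it was Plin5 and Fitm2, and without aPU.1KO mouse 3 Plin1, Plin5 and Fitm2 (and Fitm1, lower). The aPU.1KO libraries lay above every control library for 4 of the 9 (Plin1, Plin5, Cidec and Fitm2), beside a background of 16.7%, and below every control library for 1 (Fitm1), beside 15.5%. Fitm1 had few counts and passed the filter through its level in the control mice and 1 aPU.1KO mouse. The median log2 fold change of the 9 was 0.19 against 0.01 over all genes tested, and 6 of 9 were above 0, beside 52% of all genes. DESeq2, the tool of the study's methods, called Cidec and Plin1 higher (adjusted p = 0.0463 and 0.0493) and no coat gene lower, beside backgrounds of 3.69% and 7.78%. These directions depend on the scaling. The 10 adipocyte markers differed among themselves under TMM scaling, from a log2 fold change of -0.77 (Lep) to 1.71 (Cfd). Retn was at 1.22 and Adrb3 at 1.12, and the rest lay at 0.29 (Lipe) to 0.66 (Slc2a4). Adipoq, among that rest at 0.43, was itself at -0.12 under scaling by these markers. With library sizes set by the 10 adipocyte markers in place of TMM, the median log2 fold change of all genes moved to -0.54 and 35.3% of all genes were called lower. Plin1, Plin5, Cidec, Fitm2, Bscl2 and Plin4 were then below 0 (-0.28, -0.16, -0.26, -0.28, -0.39 and -0.47), yet each was above that median of all genes. Plin2 (-1.01, adjusted p = 0.0221) and Plin3 (-0.62, adjusted p = 0.0400) were called lower and lay below it.

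**Figure D2:**
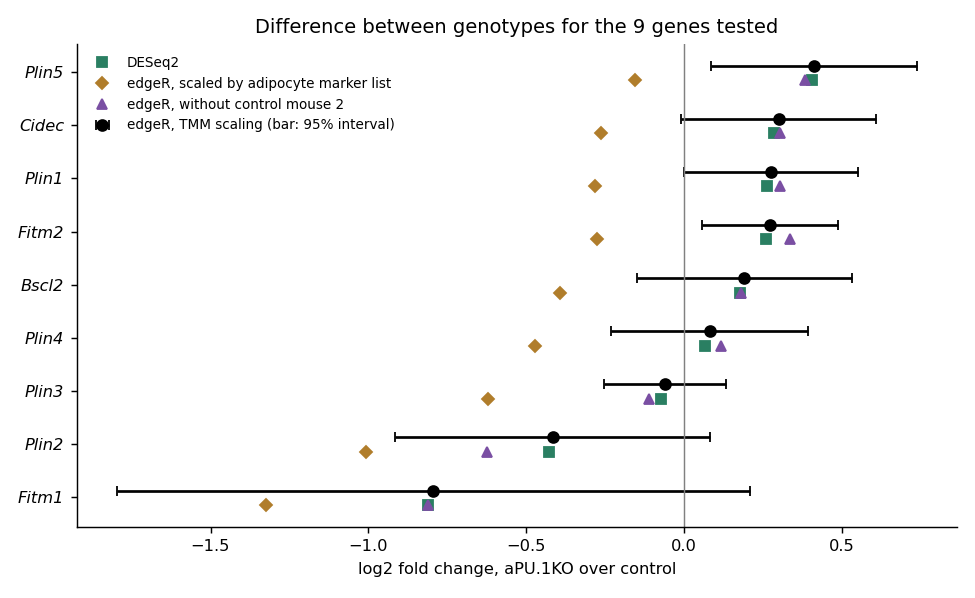
Log2 fold change of aPU.1KO over control for the 9 genes tested (x axis), with edgeR's value and its 95% interval in black and DESeq2, scaling by adipocyte markers, and the fit without control mouse 2 as coloured points. The intervals of Plin5 and Fitm2 lie above 0 under TMM scaling and that of Plin1 begins at 7.06e-05, while scaling by adipocyte markers puts all 9 genes below 0.

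Plin1 encodes perilipin 1, the main coat protein of the adipocyte droplet, which holds back the lipase co-activator Abhd5 until it is phosphorylated. The gene (ENSMUSG00000030546) lies on chromosome 7, 79720218 to 79732903, minus strand, in the GRCm38 annotation used for all coordinates of genes here. Plin1 was at 2042, 2226 and 2075 CPM in control mice 1, 2 and 3 and at 2669, 2640 and 2368 CPM in aPU.1KO mice 1, 2 and 3. Under TMM scaling all 3 aPU.1KO libraries were above all 3 control libraries, although the gap between aPU.1KO mouse 3 and control mouse 2 was small. The means were 2114 ± 97.8 and 2559 ± 166 CPM (SD, n = 3), a log2 fold change of 0.28 (SE 0.12, 95% interval 7.06e-05 to 0.55, unadjusted p under 0.05, edgeR adjusted p = 0.195). Each mouse left out in turn gave 0.23 to 0.33.

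Plin2 encodes perilipin 2, which coats small droplets in most cell types, lipid-laden macrophages among them, and is replaced by Plin1 as fat cells mature. It lies on chromosome 4, 86648386 to 86670060 (ENSMUSG00000028494). Plin2 was at 626.8, 374.9 and 595.9 CPM in the control mice and at 462.3, 362.6 and 372.1 CPM in the aPU.1KO mice. Control mouse 2 fell among the aPU.1KO libraries, so the groups overlapped, and the control mice varied more for Plin2 (coefficient of variation 25.8%) than for any other coat gene tested. The means were 532.5 ± 137 and 399.0 ± 55.0 CPM, a log2 fold change of -0.42 (SE 0.21, 95% interval -0.92 to 0.08, edgeR adjusted p = 0.261). Without control mouse 2, Plin2 was called lower in aPU.1KO mice with a log2 fold change of -0.63 (edgeR adjusted p = 0.0483), the only coat gene called there, beside a background of 6.93%. The other mice left out in turn gave -0.55 to -0.30, none of them called.

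Plin2 levels followed the macrophage markers across the libraries. Both control mice with high marker levels, 1 and 3, had high Plin2, and the other 4 libraries had less of both. Over the 6 libraries, log2 Plin2 and the mean log2 level of the 16 markers had a Pearson r of 0.90 and a Spearman rho of 0.83, a description only, since the points share genotype, library and scaling. The same r was 0.70 for Plin3 and 0.71 for Fitm1 (Spearman rho 0.60 and 0.89). It was below 0 for the other coat genes tested, from -0.53 (Bscl2) to -0.97 (Fitm2), with -0.92 for Plin1 and -0.83 for Cidec. With the marker score as a covariate in edgeR, the log2 fold change of Plin2 was 0.42 (SE 0.22, adjusted p = 1.00) and 0 genes were called in the whole table, with 417 at an unadjusted p under 0.05. In that fit Plin1 was at 0.13 (SE 0.23), Fitm2 at 0.05 (SE 0.16), Bscl2 at 0.03 (SE 0.30), Plin5 at 0.40 (SE 0.30) and Cidec at 0.24 (SE 0.26). The score separates the genotypes as well as the libraries, so the share of the Plin2 difference that belongs to macrophage RNA cannot be told apart from that of the genotype.

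**Figure D3:**
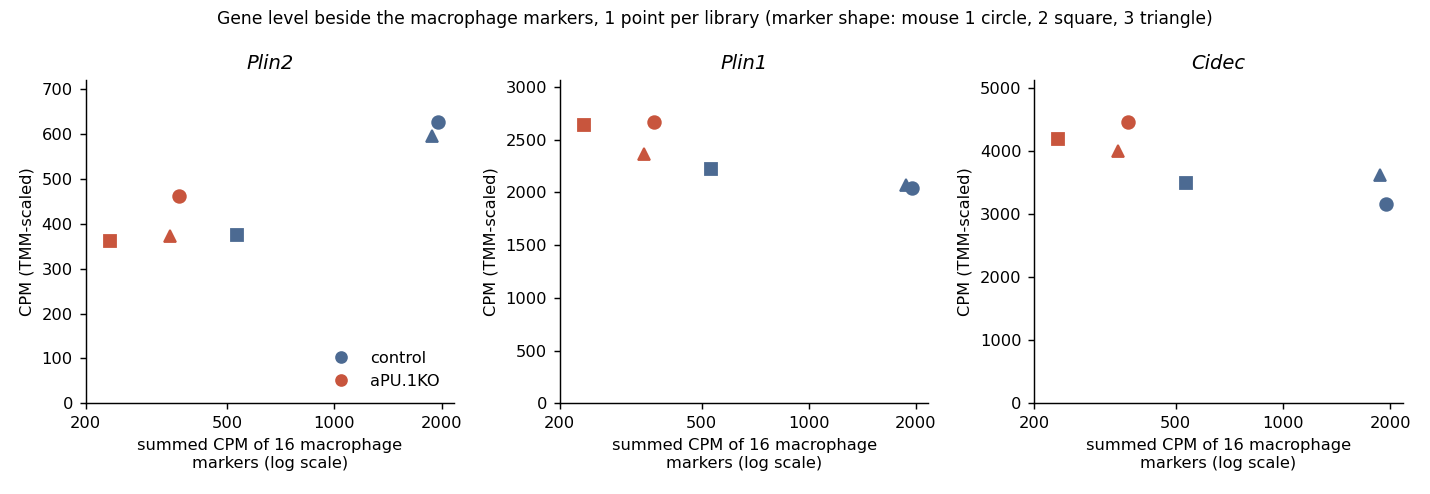
CPM of Plin2, Plin1 and Cidec (y axes from 0) against the summed CPM of 16 macrophage markers (log axis), with 1 point per library, control in blue, aPU.1KO in red, and a symbol for each mouse number. Control mice 1 and 3 lie at 1950 and 1874 CPM of markers with the highest Plin2, and control mouse 2 lies near the aPU.1KO libraries for Plin2 but below them for Plin1 and Cidec under TMM scaling.

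Plin3, the widely expressed perilipin that moves between cytosol and nascent droplets, differed little. It was at 85.3, 79.8 and 89.4 CPM in the control mice and at 82.9, 75.6 and 85.4 CPM in the aPU.1KO mice. The groups overlapped, with a log2 fold change of -0.06 (SE 0.08, 95% interval -0.25 to 0.13, edgeR adjusted p = 0.669). The value ran from -0.11 without control mouse 2 to -0.01 without aPU.1KO mouse 2, and the interval leaves room for a fall of up to 0.25 on the log2 scale.

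Plin4, a long amphipathic perilipin abundant in white fat, and Plin5, which links droplets to mitochondria in oxidative tissues, are neighbours on chromosome 17 (56100591 to 56109803 and 56111601 to 56117596). Plin4 was at 3778, 4422 and 4301 CPM in the control mice and at 4408, 4438 and 4373 CPM in the aPU.1KO mice. Its aPU.1KO libraries were within 1.01-fold of each other and within the control range, apart from mouse 2, which was just above it. The log2 fold change of Plin4 was 0.08 (SE 0.13, 95% interval -0.23 to 0.39, edgeR adjusted p = 0.731), and it was 0.0019 without control mouse 1. Plin5 was at 5.95, 6.13 and 6.86 CPM in the control mice and at 7.73, 8.95 and 8.48 CPM in the aPU.1KO mice, on 140 to 432 counts a library. Under TMM scaling its groups did not overlap, with means of 6.31 ± 0.483 and 8.38 ± 0.618 CPM. The log2 fold change was 0.41 (SE 0.14, 95% interval 0.08 to 0.74, unadjusted p = 0.0208, edgeR adjusted p = 0.130), the highest of the perilipins, on a gene whose level per kb was the lowest of the 5. Of 6 brown and beige fat markers, 4 were tested, 3 of them had a log2 fold change above 0, beside 52% of all genes, and none passed edgeR's adjusted p. Ucp1 had too few counts to be tested, at 1.06, 0.219 and 0.635 CPM in the control and 0.305, 0.0452 and 0 CPM in the aPU.1KO mice. The remaining 1 of the 4, Dio2, was below 0 (-1.57, edgeR adjusted p = 0.115) and was called lower by DESeq2 (adjusted p = 0.0280).

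The make-up of the perilipin RNA was compared apart from its amount. Of the summed perilipin level per kb of exon, Plin4 took 53.2% ± 2.65 in the control and 52.6% ± 1.52 in the aPU.1KO mice (SD, n = 3), and Plin1 33.6% ± 1.34 and 37.9% ± 1.28. Plin2 took 13.8%, 7.76% and 12.2% in the control mice and 8.81%, 7.05% and 7.57% in the aPU.1KO mice, so that control mouse 2 again sat beside the aPU.1KO libraries. Plin3 and Plin5 made up 1.66% ± 0.109 and 0.223% ± 0.0121 in the control and 1.48% ± 0.125 and 0.277% ± 0.0255 in the aPU.1KO mice. These shares need no scaling factor but depend on the length used for each gene. With the longest transcript as length, Plin1 took 42.1% and 47.5% and Plin4 40.6% and 40.1% in the control and aPU.1KO mice.

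**Figure D4:**
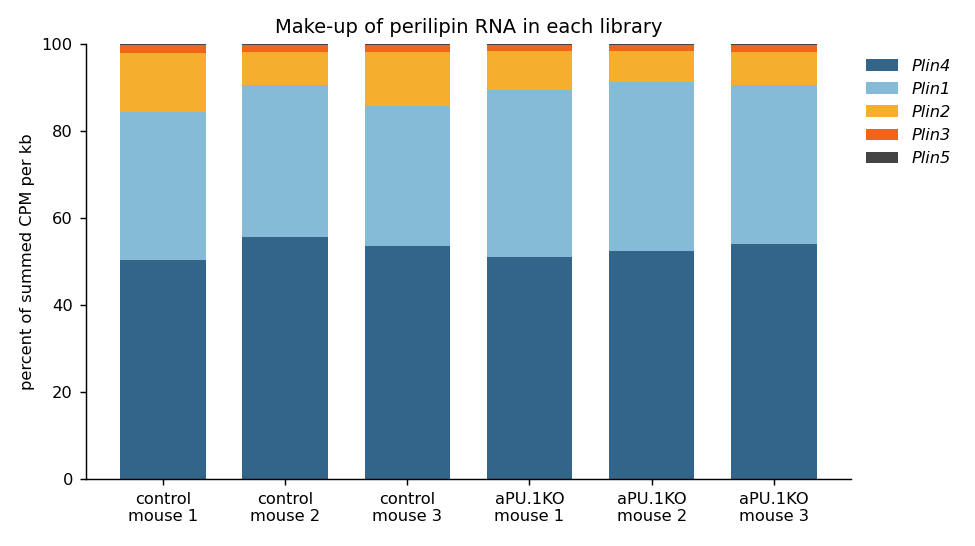
Share of each perilipin in the summed perilipin level (percent of CPM per kb of exon, y axis) in each of the 6 libraries. Plin4 and Plin1 fill most of every bar, and Plin2 is widest in control mice 1 and 3 at 13.8% and 12.2%.

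Ratios between genes within a library give the same question a test that is free of scaling and length. Plin4 counts were 1.85, 1.99 and 2.07 times Plin1 counts in the control mice and 1.65, 1.68 and 1.85 times in the aPU.1KO mice. The mean log2 ratio was lower by 0.19 in the aPU.1KO mice. The groups did not overlap but nearly touched, at log2 ratios of 0.885 in aPU.1KO mouse 3 and 0.888 in control mouse 1, with an exact two-sided permutation p of 0.1, the smallest that 3 against 3 mice can give (adjusted p = 0.4 over 8 ratios). Plin2 counts were 0.307, 0.168 and 0.287 of Plin1 counts in the control mice and 0.173, 0.137 and 0.157 in the aPU.1KO mice. That ratio had the largest mean difference among the perilipins, -0.66 on the log2 scale, but overlapped through control mouse 2 (exact permutation p = 0.2, adjusted p = 0.4). Plin3 over Plin1 (-0.34, exact permutation p = 0.2) and Plin5 over Plin1 (0.14, exact permutation p = 0.3) overlapped as well, and the latter ran from 0.07 to 0.22 with 1 mouse left out.

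Cidec, also known as FSP27, joins droplets into the single large one of white fat. The gene (ENSMUSG00000030278) lies on chromosome 6, 113424634 to 113435760. Cidec was at 3169, 3495 and 3624 CPM in the control mice and at 4466, 4193 and 3999 CPM in the aPU.1KO mice. Under TMM scaling no aPU.1KO library reached down to a control library, and each group spanned at most 1.14-fold from its lowest to its highest mouse. The means were 3429 ± 235 and 4219 ± 235 CPM, a log2 fold change of 0.30 (SE 0.13, 95% interval -0.01 to 0.61, edgeR adjusted p = 0.205). Cidec kept pace with Plin1: its counts were 1.55, 1.57 and 1.75 times those of Plin1 in the control mice and 1.67, 1.59 and 1.69 times in the aPU.1KO mice. The ratio overlapped between the groups and differed by 0.03 on the log2 scale (exact permutation p = 0.8).

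Cideb is the CIDE gene of liver and intestine, where it acts on lipoprotein loading. It held 19, 3 and 4 counts in the control and 7, 7 and 5 counts in the aPU.1KO libraries, too few for the edgeR filter. These counts are 0.262, 0.131 and 0.159 CPM (exact 95% Poisson intervals of 0.158 to 0.409, 0.0271 to 0.384 and 0.0432 to 0.406) against 0.356, 0.316 and 0.237 CPM (0.143 to 0.733, 0.127 to 0.652 and 0.0769 to 0.553). The intervals cover counting error only, and they overlap between every pair of libraries. DESeq2 gave an adjusted p of 0.692. Of the exon length of Cideb, 76.3% (1136 bases) overlaps Nop9 on the other strand, and whether counting used the strand is not given in the sources used here, so even these few counts cannot be assigned to Cideb with certainty.

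Bscl2 encodes seipin, which shapes droplets at their site of birth and whose loss causes a near absence of fat. The gene (ENSMUSG00000071657) lies on chromosome 19, 8837467 to 8848683. Bscl2 was at 249.9, 259.6 and 270.9 CPM in the control mice and at 282.7, 360.5 and 247.3 CPM in the aPU.1KO mice. Mouse 3 of the aPU.1KO group was below every control mouse and mouse 2 was far above them. The means were 260.1 ± 10.5 and 296.8 ± 57.9 CPM, a log2 fold change of 0.19 (SE 0.14, 95% interval -0.15 to 0.53, edgeR adjusted p = 0.439). The value rested on single mice: it was 0.02 without aPU.1KO mouse 2 and 0.31 without aPU.1KO mouse 3, neither called. Exons of Gng3 on the other strand overlap 6.75% of the Bscl2 exon length, and those of AC129217.1, a protein-coding gene on the same strand, overlap 4.05%.

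Fitm2 and Fitm1 encode membrane proteins of the endoplasmic reticulum that are needed for droplet budding, Fitm2 in most tissues and Fitm1 mainly in muscle. Fitm2 was at 221.5, 252.5 and 213.8 CPM in the control mice and at 284.4, 277.4 and 267.9 CPM in the aPU.1KO mice. Under TMM scaling the groups did not overlap, and the aPU.1KO mice were close together (coefficient of variation 3.00%). The means were 229.2 ± 20.5 and 276.6 ± 8.28 CPM, a log2 fold change of 0.27 (SE 0.09, 95% interval 0.06 to 0.49, unadjusted p = 0.0208, edgeR adjusted p = 0.130).

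Fitm1 held 48, 15 and 17 counts in the control and 5, 6 and 13 counts in the aPU.1KO libraries, which is 0.661, 0.657 and 0.674 CPM against 0.254, 0.271 and 0.616 CPM. It passed the count filter through its level in the control mice and 1 aPU.1KO mouse, so its place among the tested genes already leans on the group where it was higher. The exact 95% Poisson interval of each aPU.1KO library reached into that of each control library, and the log2 fold change was -0.79 (SE 0.42, edgeR adjusted p = 0.284). It was -1.32 without aPU.1KO mouse 3, still not called (adjusted p = 0.114). Fitm1 counts were 0.00298, 0.00260 and 0.00315 of Fitm2 counts in the control mice and 0.000893, 0.000978 and 0.00230 in the aPU.1KO mice, which did not overlap (-1.20 on the log2 scale, exact permutation p = 0.1, adjusted p = 0.4). The Bscl2 to Fitm2 ratio overlapped between the groups (-0.10, exact permutation p = 0.6), and its difference ran from -0.25 without aPU.1KO mouse 2 to -0.00025 without aPU.1KO mouse 3. An antisense gene overlaps 11.2% of the Fitm1 exon length and another 5.72% of that of Fitm2.

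**Figure D5:**
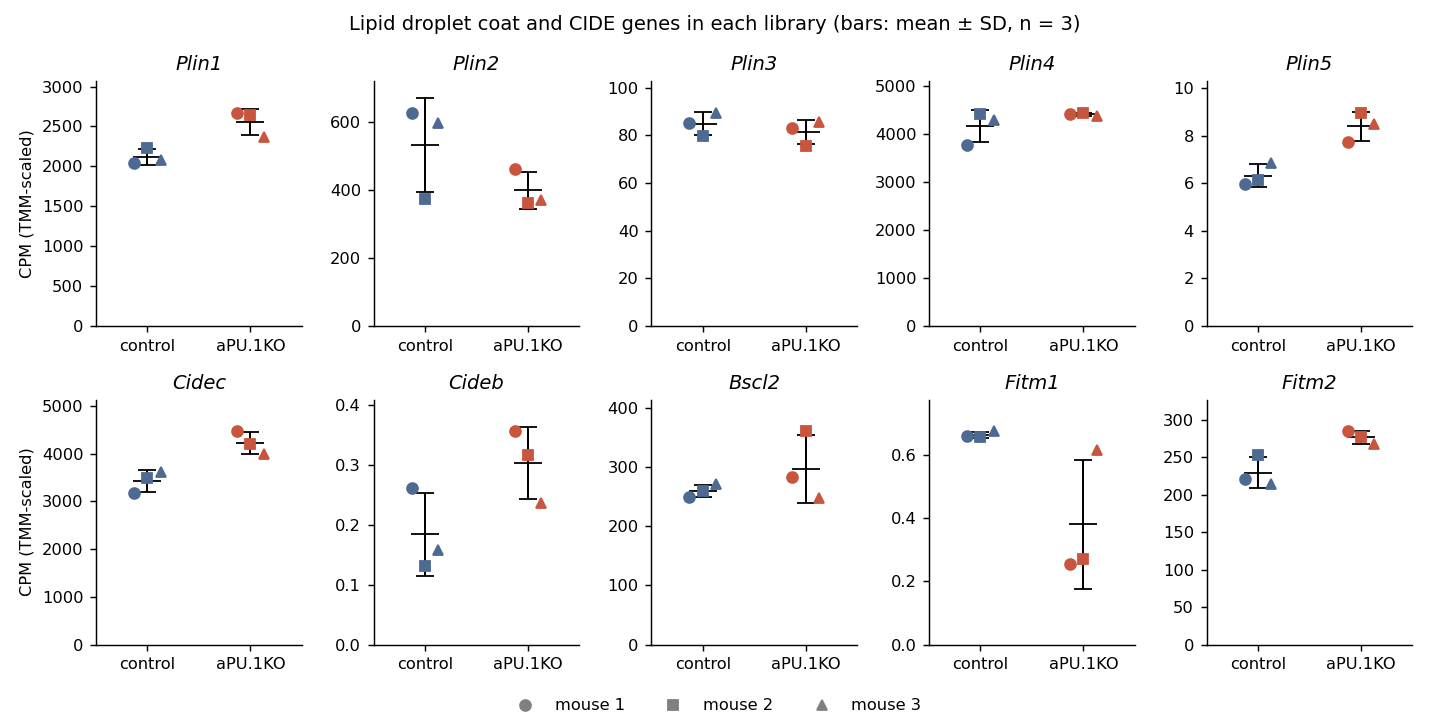
TMM-scaled CPM of the 10 genes in each library (y axes from 0, 1 panel per gene), with control in blue, aPU.1KO in red, a symbol for each mouse number, and mean ± SD (n = 3) as bars. Under TMM scaling the groups do not overlap for Plin1, Plin5, Cidec, Fitm1 (5 to 48 counts a library) and Fitm2, and control mouse 2 lies among the aPU.1KO mice for Plin2.

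The genes also differed in how they moved together. Over the 6 libraries, log2 levels of Plin1 and Cidec had a Pearson r of 0.93, and those of Plin1 and Fitm2 0.94. Within the groups, after each group's mean was taken off, these were 0.63 and 0.75. Plin2 ran against Plin1 (-0.66) and Fitm2 (-0.80), and within the groups these were -0.34 and -0.71. The points share library, depth and scaling, and the values are descriptions over 6 libraries. The 5 tested genes most like Cidec over the 6 libraries were Myl6 (r = 0.990), Bad (0.984), Pithd1 (0.982), Ppil3 (0.979) and Hebp1 (0.978), none of them a droplet gene, and 326 genes had an r of 0.9 or more.

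Most partners of these genes on and around the droplet had a log2 fold change above 0 under TMM scaling, and none passed the test. Of 44 partners listed by role, 42 were tested, 34 were above 0 beside 52% of all genes, and 0 had an edgeR adjusted p under 0.05. At an unadjusted p under 0.05, 13 were higher and 2 lower in aPU.1KO mice, beside 11.9% and 13.7% of all genes, and the median log2 fold change of the 42 was 0.17 (0.01 over all genes). DESeq2 called 9 higher and 1 lower, and with adipocyte-marker scaling 9 partners were called, all lower. Lipe and Pparg are both partners and among the 10 markers that set that scaling, so their values under it are partly fixed. Over all genes, DESeq2 called 3.69% higher and 7.78% lower, and adipocyte-marker scaling called 35.3% lower, a larger share than among the partners. In droplet biogenesis and core lipid synthesis, 10 of 11 were above 0 and 6 had an unadjusted p under 0.05 (median 0.44). All 8 lipase partners (median 0.15) and all 7 transcription factors known to act on perilipin and CIDE genes (median 0.34) were above 0, with 2 and 5 at an unadjusted p under 0.05. The 16 other droplet-associated genes split, with 9 above and 7 below 0 (median 0.02).

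The 3 partners with the highest log2 fold change all belonged to droplet biogenesis and lipid synthesis. Mogat1, a monoacylglycerol acyltransferase, was at 14.8, 21.4 and 14.1 CPM in the control and 32.8, 47.4 and 18.2 CPM in the aPU.1KO mice, where mouse 3 overlapped the control range (log2 fold change 0.97, SE 0.35, edgeR adjusted p = 0.143, DESeq2 adjusted p = 0.0477). Tmem159 encodes promethin, the protein that assembles with seipin at sites of droplet formation. Tmem159 was at 22.4, 26.0 and 20.3 CPM in the control mice and at 37.6, 46.2 and 34.6 CPM in the aPU.1KO mice. The groups were well apart, by 0.79 on the log2 scale (SE 0.14, edgeR adjusted p = 0.0724), and the gene was called by DESeq2 (adjusted p = 0.000259) and by edgeR without control mouse 2 (0.87, adjusted p = 0.0220). Gpat3, an enzyme of the first step of triglyceride synthesis, was at 140.5, 199.0 and 120.2 CPM against 199.8, 307.6 and 199.5 CPM, with control mouse 2 just below the lowest aPU.1KO library (0.62, SE 0.24, edgeR adjusted p = 0.171).

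The 3 lowest were Lpcat2, Acsl4 and Vim. Lpcat2, a phospholipid-remodelling enzyme of droplets and of myeloid cells, was at 1.98, 0.482 and 1.35 CPM in the control and at 0.254, 0.452 and 0.332 CPM in the aPU.1KO mice. It passed the count filter through its level in the control mice, so its tests lean on the group where it was higher. Its control mouse 2 stood next to the aPU.1KO libraries, as for Plin2 and the macrophage markers (log2 fold change -1.90, SE 0.57, edgeR adjusted p = 0.111, DESeq2 adjusted p = 0.0465), and without that mouse it was called lower (-2.27, adjusted p = 0.0253). Acsl4, an acyl-CoA synthetase with a preference for arachidonate, was at 51.4, 51.2 and 46.4 CPM against 42.8, 43.4 and 41.3 CPM, without overlap (-0.23, SE 0.07, edgeR adjusted p = 0.127). Vim, an intermediate filament gene of many non-adipocyte cells as well, overlapped between the groups (-0.17, SE 0.18, edgeR adjusted p = 0.578).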

How the data were processed

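RNA-seq covered adipocytes of 3 control and 3 aPU.1KO mice. The authors deposited estimated counts per gene: reads were quantified with Salmon (validateMappings), and transcript counts were summed to genes. The submitters' processing notes name GRCm38, and the Salmon version and annotation are not given in the sources used here. The deposited estimated counts are whole numbers and were not rounded further. Salmon divides reads shared by transcripts by estimate, which makes overlapping genes less certain. Of 35122 genes, 35102 were matched to a symbol (GENCODE M21), and no other gene shared a stretch of 300 bases or more with a coat gene at 90% identity (BLAST 2.17.0). No library was a duplicate (lowest chi-square over degrees of freedom within a genotype, 19.0).

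Groups were compared with edgeR 4.0.16 in R 4.3.3 (filterByExpr, TMM, glmQLFit, glmQLFTest, Benjamini-Hochberg adjustment over 13925 genes, called under 0.05). Log2 fold changes are aPU.1KO over control, and standard errors come from the coefficient and F statistic. Ratios were tested by exact two-sided permutation (scipy 1.17.1). Scores of marker lists are mean log2(CPM + 1). Alternatives were other scalings (RLE, upper quartile, adipocyte markers), filters (10 counts in every library, none), DESeq2 1.42.0, limma-voom (limma 3.58.1), robust dispersion, legacy = FALSE, a macrophage covariate, another gene length and leaving out each mouse. The pipeline was tested on simulated data.

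The genes, partner and marker lists and motifs were chosen with earlier results of these data known. The genes named are all 10 coat genes, Spi1, Adipoq, the 3 partners highest and 3 lowest in log2 fold change, any partner that edgeR called over all 6 mice (0 were), and the 5 genes most correlated with the coat gene highest per length. Lep, Cfd, Retn, Adrb3, Slc2a4, Dio2, Ucp1, Alb, Apoa1, Ttr, Fgg, Mup3, Acta1, Lcn5, Lcn8, Spag11b, Lipe, Pparg and Gpat4 were named after their values were seen, and Spart was not analysed here. Depth limits Cideb, Fitm1 and the partner Lpcat2, and 3 mice per group limit every test.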

Additional observations from a re-analysis of the deposited data

How the results depend on the processing

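The log2 fold changes of the 9 coat genes kept their direction under all alternatives other than adipocyte-marker scaling and the macrophage covariate, wherever they were tested (Fitm1 was dropped by the filter of 10 counts in every library). Scaling by the adipocyte markers turned Plin1 (-0.28), Plin4 (-0.47), Plin5 (-0.16), Cidec (-0.26), Bscl2 (-0.39) and Fitm2 (-0.28), and called 4947 genes, 2 of them coat genes and 9 partners. Adipoq, one of those markers, was at -0.12 in that fit. The covariate turned Plin2 (0.42), Plin3 (0.12) and Plin4 (-0.078) and brought Plin1, Fitm2 and Bscl2 to 0.13, 0.05 and 0.03, with 0 genes called and 417 at an unadjusted p under 0.05. Called genes in the whole table were 33 in the main fit, 5 with at least 10 counts in every library, 146 with no filter, and 1867 with DESeq2, which called 2 coat genes and 10 partners. Leaving out 1 mouse gave 0 (without control mouse 1, with 1718 at an unadjusted p under 0.05) to 1193 (without control mouse 2), with 0 to 1 coat genes and 0 to 3 partners (Tmem159, Gpat4 and Lpcat2 without control mouse 2). Without control mouse 3 and aPU.1KO mice 1, 2 and 3 in turn it was 5, 6, 7 and 8. The cause was not tested. With RLE and upper-quartile scaling, limma-voom, robust dispersion and legacy = FALSE, counts were 24 to 46, with 0 coat genes. With the longest transcript as length, 6 of 10 genes kept their place in the order of levels. Of 8 ratios, 2 did not overlap, and leaving out 1 mouse gave 3 to 4, a count that cannot fall when a mouse is dropped. Cidec over Plin1 ran from -0.0058 (without control mouse 1) to 0.079 with a mouse left out. The study's text describes the controls as littermates, but the labels do not give the litters, and no 2 mice share a mouse number. A paired analysis was therefore not possible, and any litter effect was not tested. Low counts, 3 to 48 a library, limit the precision for Cideb and Fitm1.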
